A study of Mus musculus with 21 samples.

Results

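The membrane-spanning 4-domains subfamily A (MS4A) genes Ms4a4a, Ms4a4b, Ms4a4c, Ms4a6b, Ms4a6c, Ms4a6d and Ms4a7 were followed in microglia and infiltrating myeloid cells sorted from mouse brain after traumatic brain injury. These 7 genes were taken by symbol from the 45706 genes of the deposited table, and all 7 passed the minimum of 5 counts over all libraries, which left 23815 genes for testing. All mice were C57BL/6 males aged 17 to 24 weeks, and each library came from tissue around the lesion of 2 pooled brains. Injury was a controlled cortical impact, in which a piston strikes the exposed cortex, and the controls were WT mice with a sham operation. Microglia (CD45low CD11b+, 40000 cells per library) were collected from sham WT mice and, 1 d or 7 d after impact, from WT mice and from Fgg γ390–396A mice. Infiltrating myeloid cells (CD45hi CD11b+, 25000 cells per library) were collected 1 d after impact, from both genotypes. The Fgg γ390–396A mutation replaces residues 390 to 396 of the fibrinogen γ chain, so that fibrin still forms but no longer binds the integrin CD11b/CD18, and it is present in every cell of the mouse. Each of the 7 groups held 3 libraries, and no sham libraries from Fgg γ390–396A mice were analysed here. Mutant microglia were compared with WT sham, so that genotype and injury cannot be told apart in those differences.

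MS4A proteins cross the membrane by 4 helices and sit beside immune receptors, whose signalling and surface level they modify. The best known relatives are CD20 (Ms4a1) on B cells and the β chain of the high-affinity IgE receptor (Ms4a2) on mast cells, while the Ms4a4 and Ms4a6 branches and Ms4a7 are used mainly by monocytes, macrophages and, for Ms4a4b and Ms4a4c, also lymphocytes. In the brain, Ms4a7 marks macrophages of the meninges and vessels rather than resident microglia, and the human MS4A4A and MS4A6A region is associated with Alzheimer's disease and with the level of soluble TREM2.

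The 7 genes lay together on chromosome 19 between positions 11321039 and 11604849 (GRCm38, GENCODE M21), a span of 284 kb within the 679 kb that held all 19 Ms4a genes of the table. Ms4a7 and Ms4a6d, the outermost of the 7, were annotated on the minus strand, and the other 5 on the plus strand. Several of the transcripts were similar in sequence. Of the 31-base words in the annotated Ms4a6c transcripts, 14.16% also occurred in another Ms4a gene, and Ms4a6b was the closest relative. The share was 15.63% for Ms4a4c, closest to Ms4a4b, 7.71% for Ms4a6b, 5.1% for Ms4a6d and 3.86% for Ms4a4b. No word was shared for Ms4a4a or Ms4a7. Part of the reads of Ms4a6b and Ms4a6c, and of Ms4a4b and Ms4a4c, could therefore have been divided between the partners when the counts were estimated.

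Ms4a6b and Ms4a6c also had similar promoters, and are shown for that reason beside their levels after injury. RefSeq promoter sequences (GRCm38.p6) were found for 6 of the 7 genes, all but Ms4a6d. The 250 bases upstream of the start sites of Ms4a6b and Ms4a6c matched at 149 of 175 aligned bases (85.1%), and those of Ms4a4b and Ms4a4c at 183 of 232 (78.9%). Annotated Ms4a6b exon took 106 of the 250 Ms4a6b bases, so the match of the Ms4a6 pair was not of promoter sequence alone. The 3 upstream stretches below show the Ms4a6 pair and Ms4a7, written 5′ to 3′ on the strand of the gene and ended before any annotated exon. Capitals mark GAAANNGAA on either strand, a core of the interferon-stimulated response element. The Ms4a6c stretch is chr19:11469118-11469365 on the plus strand and lay outside annotated genes. The Ms4a6b stretch is chr19:11518309-11518452 on the plus strand, within an intron of a longer Ms4a6b transcript. The Ms4a7 stretch is chr19:11336147-11336396 on the minus strand, also intergenic.
Ms4a6c: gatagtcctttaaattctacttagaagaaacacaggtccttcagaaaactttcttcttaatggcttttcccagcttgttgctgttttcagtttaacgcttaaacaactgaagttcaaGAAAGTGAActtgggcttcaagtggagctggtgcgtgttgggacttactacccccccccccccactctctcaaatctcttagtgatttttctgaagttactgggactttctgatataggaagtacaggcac
Ms4a6b: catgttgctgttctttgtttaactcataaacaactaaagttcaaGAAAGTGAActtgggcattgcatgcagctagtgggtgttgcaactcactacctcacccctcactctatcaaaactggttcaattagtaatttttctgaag
Ms4a7: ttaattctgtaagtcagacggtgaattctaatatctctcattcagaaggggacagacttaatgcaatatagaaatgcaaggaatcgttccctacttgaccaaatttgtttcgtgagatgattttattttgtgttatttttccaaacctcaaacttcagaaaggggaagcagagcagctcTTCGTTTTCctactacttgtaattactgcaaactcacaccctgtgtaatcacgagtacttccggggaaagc
The motif ended 125 bases upstream of the RefSeq start site in Ms4a6c and 198 bases upstream in Ms4a6b, with the same letters, GAAAGTGAA, in both. The printed Ms4a6b stretch ends 107 bases before that start site, because the 106 bases between them are annotated Ms4a6b exon. The motif lay on the opposite strand in Ms4a7, which had a second annotated start site whose upstream window also held it. It was not found in the windows of Ms4a4a, Ms4a4b or Ms4a4c, and 7.1% of all 32851 promoters in the RefSeq table held it. Of the other motifs searched on both strands, TGANTCA (6.7% of all promoters) matched once, in the second window of Ms4a7. TTCNNNGAA (7.0%), GAGGAAGT (2.4%) and TGCTGAC (3.8%) matched in none of the members. These matches describe letters and were not tested as binding sites.

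The libraries held between 18896957 and 51875767 counts, of which ribosomal RNA genes took 43.0% to 58.6%. Values are given as CPM, a gene's count scaled to a common library size, after TMM scaling, which adjusts libraries so that most genes do not differ. The authors' scaled counts already divide by transcript length, so levels of different genes in a library can be set side by side. A level of 3 counts corresponded to 0.0448 to 0.158 CPM depending on the library. The summed CPM of 10 microglia markers was 12263 to 13734 in sham microglia and 391 to 1101 in the myeloid cells, where none of the 10 was at 0. The myeloid gate held monocytes and neutrophils, with monocyte markers (8 genes) summing to 1958 to 2286 CPM and neutrophil markers (10 genes) to 2774 to 13216 CPM. In such bulk libraries, fewer cells of a type and less RNA per cell cannot be told apart.

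In sham microglia most of the summed family level came from the Ms4a6 genes, and Ms4a7 held 0.421% to 12.9% of it. Ms4a6b averaged 42.3 ± 5.69 CPM (SD, n = 3), Ms4a6d 36.2 ± 9.28 CPM, Ms4a6c 14.3 ± 4.46 CPM and Ms4a7 9.83 ± 8.73 CPM. Ms4a4c (1.31 ± 1.87 CPM), Ms4a4a (0.681 ± 0.598 CPM) and Ms4a4b (0.101 ± 0.115 CPM) were the lowest of the 7. Ms4a6b and Ms4a6d overlapped, Ms4a6d stood above Ms4a6c in every library, and each later neighbour in this order overlapped the one before. The order was different in myeloid cells from WT mice, where Ms4a6d came first at 254 ± 20.6 CPM, followed by Ms4a6c at 205 ± 29.5 CPM, Ms4a7 at 162 ± 36.5 CPM, Ms4a6b at 95.2 ± 30.6 CPM, Ms4a4c at 59.3 ± 11.7 CPM, Ms4a4a at 33.3 ± 3.66 CPM and Ms4a4b at 3.26 ± 1.38 CPM. There the ranges of Ms4a6d, Ms4a6c, Ms4a7 and Ms4a6b each overlapped the next, and those of Ms4a6b, Ms4a4c, Ms4a4a and Ms4a4b did not. The plot of levels by library shows these patterns for all 7 genes.

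**Figure D1:**
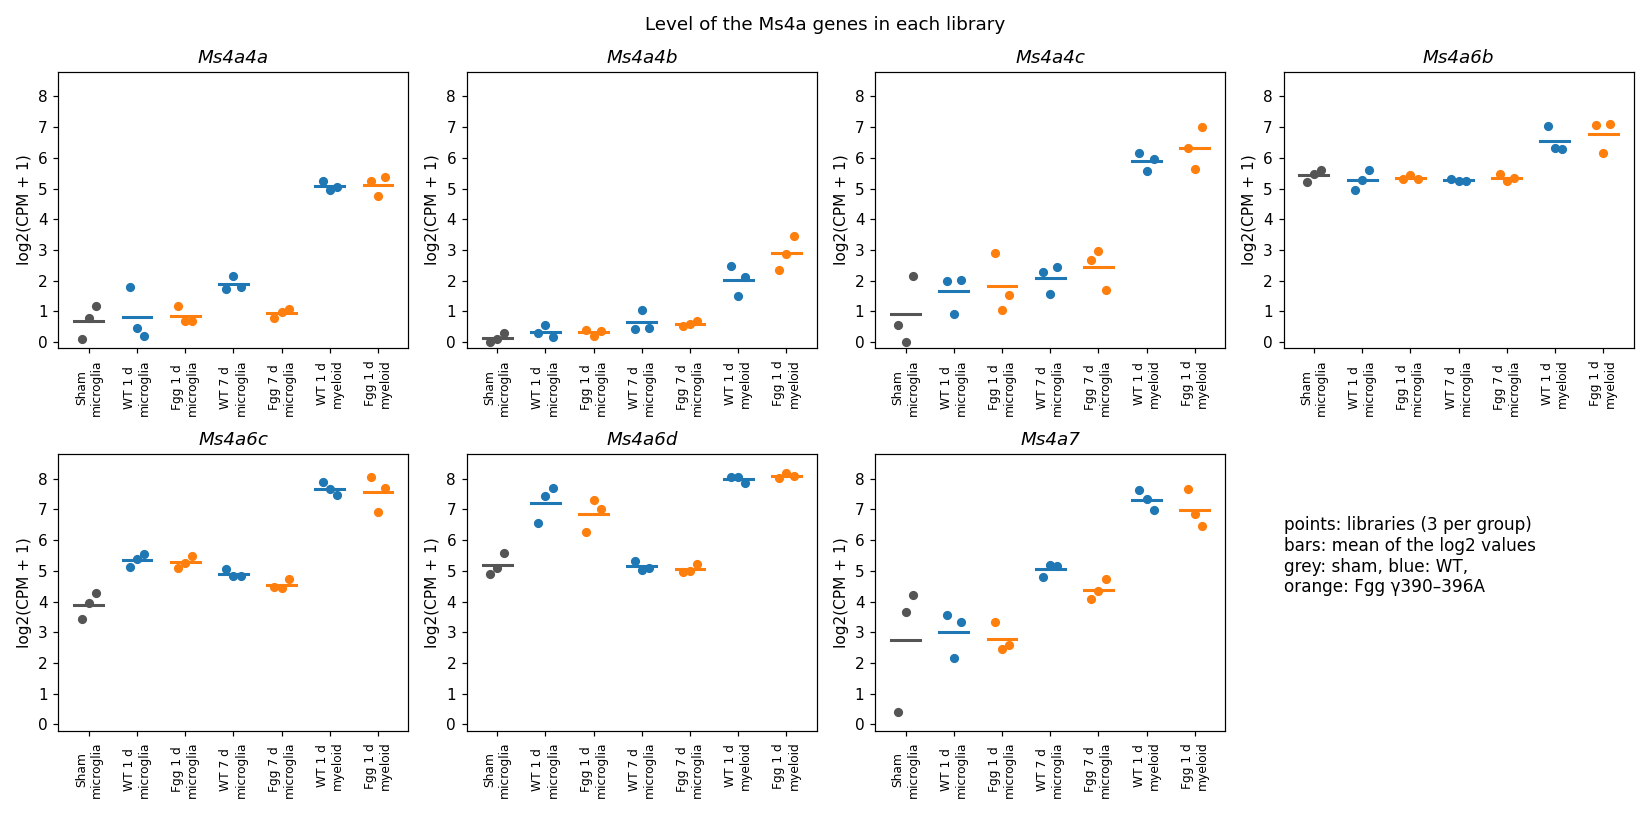
Level of each Ms4a gene in the 21 libraries, as log2(CPM + 1) by group. Points are libraries (3 per group) and bars the mean of the log2 values. Ms4a6d is high at 1 d only among the microglia groups, Ms4a7 is highest among them at 7 d, and all 7 genes are highest in myeloid cells.

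The summed level of the 7 genes was 105 ± 29.8 CPM (SD, n = 3) in sham microglia and 246 ± 68.7 CPM in WT microglia at 1 d. It was 140 ± 2.98 CPM in WT microglia at 7 d. The sum in Fgg γ390–396A microglia was 208 ± 39.2 CPM at 1 d and 122 ± 8.85 CPM at 7 d. Myeloid cells held 812 ± 120 CPM in WT and 843 ± 152 CPM in Fgg γ390–396A mice. The make-up of the sum moved with time: Ms4a6d supplied 34.9% in sham, 62.2% at 1 d and 24.6% at 7 d in WT microglia, while Ms4a7 supplied 8.22%, 3.50% and 23.0%.

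Ms4a6d was the member with the greatest change in microglia at 1 d. It encodes a macrophage MS4A protein of the Ms4a6 branch. Its level was 28.9, 33.1 and 46.7 CPM in the 3 sham libraries and 92.9, 171 and 205 CPM in WT microglia at 1 d. The mutant microglia held 76.0, 156 and 127 CPM. Every injured library at 1 d lay above every sham library. The increase over WT sham was 2.11 ± 0.27 on the log2 scale (SE) in WT (quasi-likelihood test of edgeR, Benjamini-Hochberg adjusted p = 1.5e-05) and 1.72 ± 0.27 in Fgg γ390–396A mice (edgeR, adjusted p = 0.00021). At 7 d the level had returned to the sham range, with 39.2, 31.3 and 33.2 CPM in WT and 30.4, 30.8 and 36.6 CPM in Fgg γ390–396A microglia. From 1 d to 7 d, Ms4a6d fell by 2.18 ± 0.27 (log2, SE) in WT (edgeR, adjusted p = 4.1e-05) and by 1.88 ± 0.27 in Fgg γ390–396A microglia (edgeR, adjusted p = 0.00028). Its difference from sham at 7 d was -0.07 in WT, with a 95% interval of -0.58 to 0.44 (edgeR, adjusted p = 1). All 4 calls held in every fit that left out 1 library. The microglia markers moved the opposite way in the same libraries. Their sum of 12263 to 13734 CPM in sham was 3301 to 5323 CPM in WT and 6090 to 7805 CPM in Fgg γ390–396A microglia at 1 d, and 7930 to 8785 CPM and 9003 to 10370 CPM at 7 d, with none of the 10 at 0. Against sham, 7 of the 10 were called lower at 1 d in WT, where 4.21% of all genes were, and 5 of 10 in the mutant, where 1.15% were. At 7 d it was 2 of 10 in WT, against 0.0924%, and 0 of 10 in the mutant, against 0.0336%. The part of this marker shift in the Ms4a6d and Ms4a6c values was not tested.

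Ms4a6c, the neighbour most similar to Ms4a6b, was also higher at 1 d and lay above every sham library at 7 d. It measured 9.72, 14.6 and 18.6 CPM in sham microglia and 33.7, 40.8 and 45.7 CPM in WT microglia at 1 d. The Fgg γ390–396A libraries at 1 d held 33.0, 37.4 and 43.5 CPM, nearly the same range. The increase over WT sham was 1.48 ± 0.25 (log2, SE) in WT (edgeR, adjusted p = 0.00027) and 1.41 ± 0.25 in Fgg γ390–396A mice (edgeR, adjusted p = 0.00079). At 7 d the values were 32.1, 27.5 and 27.4 CPM in WT and 21.4, 20.8 and 25.6 CPM in Fgg γ390–396A microglia, all above the sham libraries. The WT increase at 7 d was 1.02 ± 0.25 (log2, SE; edgeR, adjusted p = 0.029), just past the bar of 1 on the log2 scale. It was lost without sham replicate 1 (0.80, adjusted p = 0.18), without sham replicate 2 (1.03, adjusted p = 0.098), and without WT replicate 1 (0.91, adjusted p = 0.13), 2 (1.06, adjusted p = 0.066) or 3 (1.06, adjusted p = 0.068) in the same edgeR test. The difference at 7 d in Fgg γ390–396A mice was 0.66 ± 0.25 (edgeR, adjusted p = 0.43), which missed the threshold. The scaling mattered for this gene: without TMM the median of all genes moved by -0.70 in WT at 1 d, -0.41 in Fgg γ390–396A at 1 d and -0.55 in WT at 7 d, and Ms4a6c then differed from sham by 0.73, 0.98 and 0.48, under the bar in each case.

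Ms4a6b, the third Ms4a6 gene, stayed near its sham level under TMM scaling. It was 36.3, 43.1 and 47.6 CPM in sham, 30.3, 38.1 and 47.4 CPM in WT microglia at 1 d and 39.1, 37.3 and 37.1 CPM at 7 d. The Fgg γ390–396A microglia held 39.1, 42.6 and 38.6 CPM at 1 d and 43.3, 36.9 and 40.01 CPM at 7 d. All 5 microglia groups overlapped. The difference from sham at 1 d in WT was -0.13, with a 95% interval of -0.59 to 0.33 (edgeR, adjusted p = 0.80). Without TMM it was -0.90 (edgeR, adjusted p = 0.017), a move of similar size to that of the median gene and under the fold bar.

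Ratios between genes of the same library do not depend on the scaling and gave the same separation. They were chosen after the levels had been seen and carry no test. Ms4a6d was 0.797, 0.768 and 0.981 times Ms4a6b in sham microglia and 3.06, 4.50 and 4.31 times in WT microglia at 1 d. The mutant ratios at 1 d were 1.94, 3.65 and 3.30. It was 1.00, 0.839 and 0.897 in WT and 0.702, 0.836 and 0.915 in Fgg γ390–396A microglia at 7 d, around the sham values. The ratio of Ms4a6c to Ms4a6b was 0.268 to 0.392 in sham, 0.963 to 1.11 in WT at 1 d and 0.737 to 0.821 in WT at 7 d. In Fgg γ390–396A microglia it was 0.843 to 1.13 at 1 d and 0.494 to 0.639 at 7 d, so that no library at either time entered the sham range. In myeloid cells the first ratio was 1.93 to 4.08 and the second 1.51 to 2.59.

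**Figure D2:**
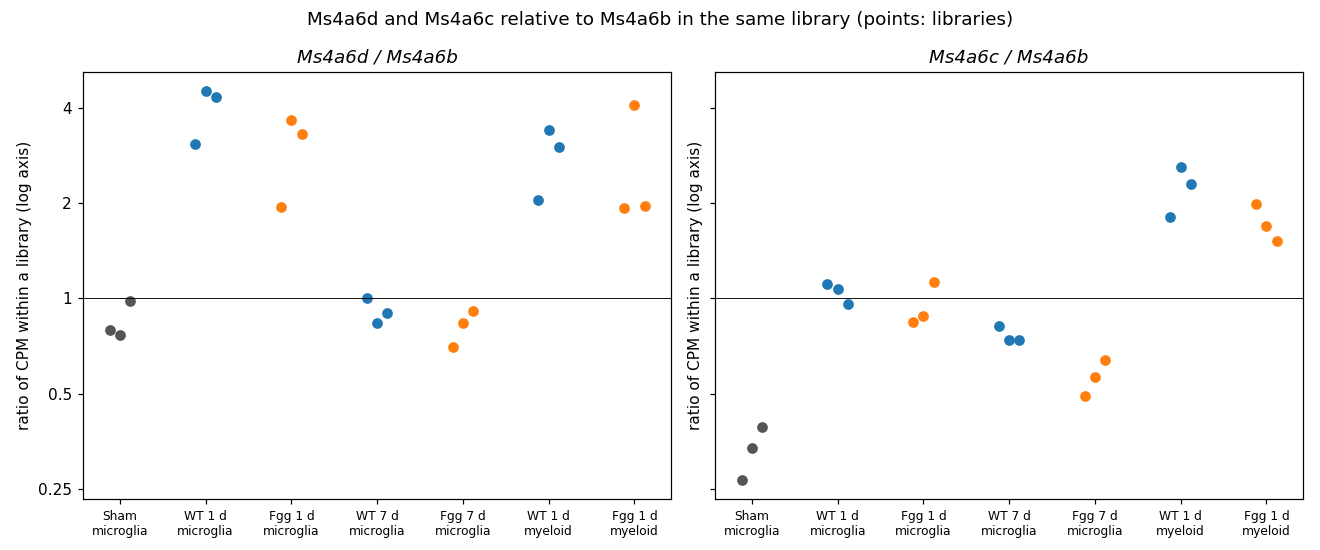
Ms4a6d (left) and Ms4a6c (right) relative to Ms4a6b in the same library, on a log axis, by group. Each point is a library; Ms4a6d rises above Ms4a6b at 1 d and returns to about 1 at 7 d, while Ms4a6c stays above its sham ratio of 0.268 to 0.392 at both times.

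Ms4a7, the macrophage member, had another time course. Its 3 sham libraries held 0.319, 11.7 and 17.5 CPM, the lowest of them 10 counts. WT microglia held 10.8, 3.51 and 9.10 CPM at 1 d and 26.6, 35.2 and 34.9 CPM at 7 d. Fgg γ390–396A microglia held 9.02, 4.43 and 5.02 CPM at 1 d and 15.9, 19.1 and 25.9 CPM at 7 d. In both genotypes every 7 d library lay above every 1 d library, and how many of all genes separated in this way was not counted. The increase from 1 d to 7 d was 2.05 ± 0.70 (log2, SE) in WT (edgeR, adjusted p = 0.071) and 1.71 ± 0.69 in Fgg γ390–396A mice (edgeR, adjusted p = 0.20), neither past the threshold. DESeq2's Wald test called the WT change (2.13, adjusted p = 0.032), and edgeR fitted on the compared groups alone called it in WT (2.03, adjusted p = 0.011) and in Fgg γ390–396A mice (1.67, adjusted p = 0.019). Against sham at 7 d, Ms4a7 differed by 1.71 ± 0.69 in WT (edgeR, adjusted p = 0.30). The sum of 9 border-associated macrophage markers was 149 to 415 CPM in sham, 276 to 431 CPM at 1 d and 344 to 419 CPM at 7 d in WT microglia, with none of the 9 at 0. In Fgg γ390–396A microglia that sum was 240 to 311 CPM at 1 d and 217 to 443 CPM at 7 d. The median log2 fold change of the 9 markers from 1 d to 7 d was 0.84 in WT and 0.73 in the mutant. Of the 9, 1 was called higher in WT, against 2.67% of all genes, and 0 in the mutant, against 0.663%. The part of these markers in the Ms4a7 values was not tested.

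The 3 Ms4a4 genes were low in microglia, at no more than 6.89 CPM in any library. Ms4a4a, which partners the fungal receptor dectin-1 in macrophages, was 0.0637, 0.721 and 1.26 CPM in sham and 2.48, 0.362 and 0.156 CPM in WT at 1 d. The mutant libraries at 1 d held 1.25, 0.629 and 0.603 CPM. It was 2.34, 3.50 and 2.43 CPM in WT at 7 d, above all sham libraries, and 0.717, 0.969 and 1.11 CPM in Fgg γ390–396A mice at 7 d, within the sham range. The WT difference from sham at 7 d was 1.99 ± 0.70 (log2, SE; edgeR, adjusted p = 0.19), short of the threshold. Against WT microglia at 1 d it was 1.46 ± 0.69 (edgeR, adjusted p = 0.22), and 3.38 (edgeR, adjusted p = 0.0028) without replicate 1 of that group, the highest of the 3. Ms4a4b, best known from T cells, reached at most 1.06 CPM, or 26 counts, in any microglia library. At 1 d it ranged from 0.117 to 0.470 CPM in WT and from 0.151 to 0.313 CPM in the mutant. It was 0.334, 1.06 and 0.386 CPM in WT and 0.435, 0.502 and 0.609 CPM in Fgg γ390–396A mice at 7 d, against 0, 0.0759 and 0.226 CPM in sham. These 6 libraries lay above the sham libraries, with differences of 2.46 ± 0.82 (edgeR, adjusted p = 0.15) and 2.25 ± 0.81 (edgeR, adjusted p = 0.37), and DESeq2 called the one in WT (2.48, adjusted p = 0.023). Ms4a4c, known as an interferon-inducible member, was 0.478, 0 and 3.44 CPM in sham, so that the third library held 137 counts and the second none, which allows up to 0.114 CPM. Injured microglia held 0.905 to 3.04 CPM in WT and 1.06 to 6.46 CPM in the mutant at 1 d, then 1.95 to 4.41 CPM and 2.22 to 6.89 CPM at 7 d, so that all 4 groups overlapped sham. Without sham replicate 3, edgeR called Ms4a4c higher than sham in WT at 1 d (3.18, adjusted p = 0.031), in Fgg γ390–396A at 1 d (3.64, adjusted p = 0.020), in WT at 7 d (3.73, adjusted p = 0.044) and in Fgg γ390–396A at 7 d (4.23, adjusted p = 0.043), and Ms4a4b in WT at 7 d (3.91, adjusted p = 0.046). With all libraries, the Ms4a4c differences were 0.76 to 1.82 and none was called.

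Over the family, 2 of 7 members were called higher than sham at 1 d in WT, where a call required a log2 fold change beyond 1 and an adjusted p under 0.05, and 8.06% of all tested genes were called higher. In Fgg γ390–396A microglia at 1 d it was also 2 of 7, against 5.49% of all genes. At 7 d it was 1 of 7 in WT, against 1.93%, and 0 of 7 in Fgg γ390–396A mice, against 0.663% in either direction. In the latter comparison 3 of 7 members had an unadjusted p under 0.05, against 7.59% of all genes, and DESeq2 called 0. From 1 d to 7 d, 1 of 7 fell in WT, against 4.39% of all genes called lower, and 1 of 7 in Fgg γ390–396A microglia, against 2.88%. The median difference of the 7 members from sham was 0.76 and 1.22 at 1 d in WT and Fgg γ390–396A and 1.32 and 0.66 at 7 d, with the median of all genes at 0. These 4 comparisons share the WT sham libraries, and the comparisons over time share the injured libraries with them. In the mutant, the differences from sham hold genotype and injury together. The share of all genes without overlap between the groups was not counted for these comparisons or those over time.

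**Figure D3:**
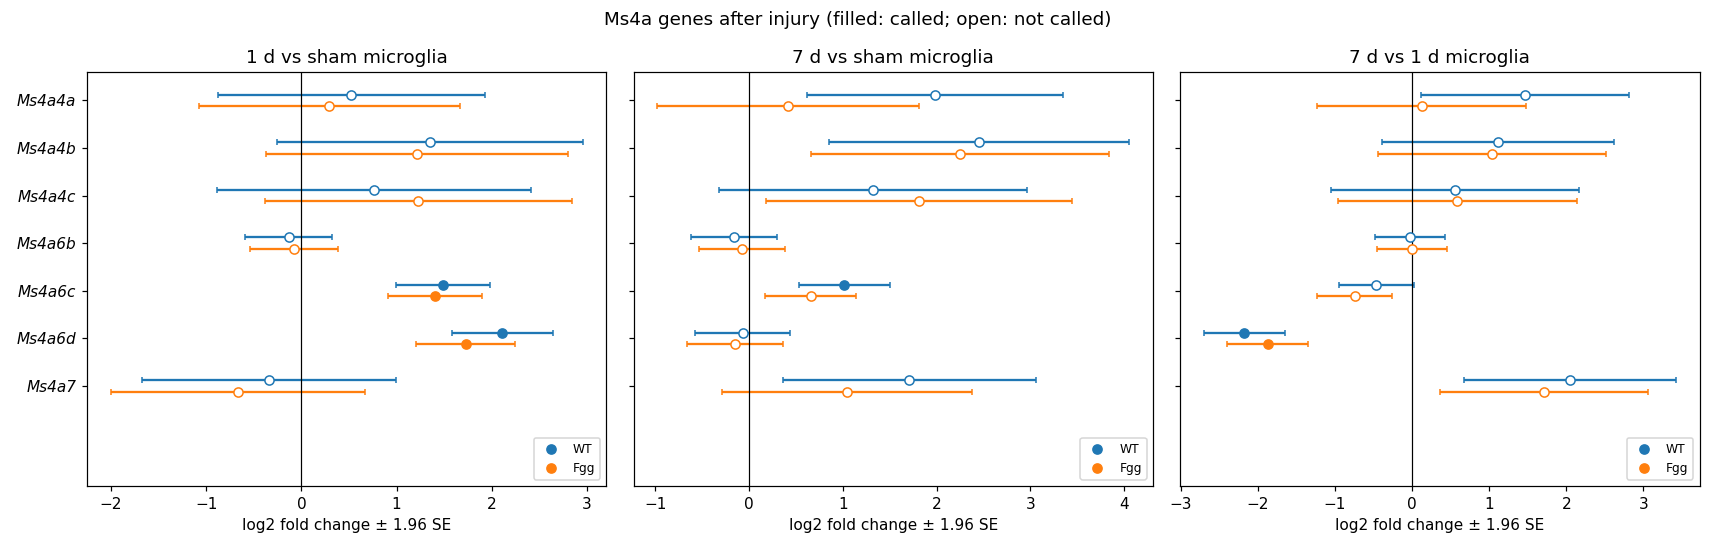
Log2 fold change of each Ms4a gene in microglia with its 95% interval, for 1 d against sham, 7 d against sham and 7 d against 1 d, in WT (blue) and Fgg γ390–396A mice (orange). The sham libraries are WT for both genotypes. Filled points were called. Ms4a6d and Ms4a6c are called at 1 d in both genotypes, Ms4a6c at 7 d in WT, and Ms4a6d from 1 d to 7 d in both; the Ms4a4 genes and Ms4a7 have wide intervals.

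All 7 genes were higher in infiltrating myeloid cells than in microglia of the same genotype at 1 d, with no overlap between the groups. Of all tested genes, 13.5% were higher without overlap in WT and 12% in Fgg γ390–396A mice. In WT, 6 of 7 were called higher, against 5.61% of all genes, and in Fgg γ390–396A mice 7 of 7, against 6.96%. The Ms4a4 genes and Ms4a7, each at 10.8 CPM or less in every microglia library at 1 d, are given first. Ms4a4a was 37.2, 30.1 and 32.5 CPM in WT and 37.1, 26.0 and 41.0 CPM in Fgg γ390–396A myeloid cells, 5.05 ± 0.75 (log2, SE; edgeR, adjusted p = 7.9e-05) and 5.34 ± 0.75 (edgeR, adjusted p = 3.7e-05) above microglia. Ms4a4c was 69.8, 46.7 and 61.4 CPM in WT and 78.3, 49.3 and 126 CPM in Fgg γ390–396A myeloid cells, 4.68 and 4.72 above microglia on the log2 scale. Ms4a7 was 197, 163 and 124 CPM in WT and 201, 115 and 86.2 CPM in Fgg γ390–396A myeloid cells, 4.37 and 4.43 above. Ms4a4b stayed low in myeloid cells too, at 4.60, 1.84 and 3.34 CPM in WT and 4.11, 6.39 and 9.99 CPM in Fgg γ390–396A mice, 3.56 ± 0.80 (edgeR, adjusted p = 0.0039) and 4.76 ± 0.83 (edgeR, adjusted p = 0.00037) above microglia.

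The Ms4a6 genes differed less between the populations. Ms4a6c was 236, 203 and 177 CPM in WT and 265, 120 and 207 CPM in Fgg γ390–396A myeloid cells, 2.36 ± 0.26 (edgeR, adjusted p = 2.9e-06) and 2.38 ± 0.26 (edgeR, adjusted p = 2.1e-06) above microglia. Ms4a6b was 131, 78.2 and 76.9 CPM in WT and 134, 71.1 and 137 CPM in Fgg γ390–396A myeloid cells, 1.30 ± 0.24 and 1.504 ± 0.24 above. Ms4a6d was 267, 265 and 231 CPM in WT and 258, 290 and 268 CPM in Fgg γ390–396A myeloid cells. Its difference from microglia was 0.70 ± 0.26 in WT (edgeR, adjusted p = 0.076), which was not called, and 1.18 ± 0.26 in Fgg γ390–396A mice (edgeR, adjusted p = 0.0027). The latter fell under the bar of 1 without microglia replicate 1 (0.94) and without TMM (0.82). The genotype difference in this contrast was itself tested, and was 0.48 for Ms4a6d, with a 95% interval of -0.24 to 1.20 (edgeR, adjusted p = 0.81). The median over the 7 members was 3.56 in WT and 4.43 in Fgg γ390–396A mice, against 0 and -0.13 over all genes. Neutrophil markers ranged from 3566 to 13216 CPM in the WT and from 2774 to 5815 CPM in the Fgg γ390–396A myeloid libraries. Natural killer cell markers (6 genes) reached 14.1 CPM in the latter and 2.12 CPM in the former. Border-associated macrophage markers (9 genes) summed to 1268.2 to 2180.4 CPM in WT and 1409.5 to 2258.5 CPM in Fgg γ390–396A myeloid cells. The median log2 fold change of these 9 between the genotypes was 1.01, higher in the mutant. None of the 9 was called, against 0.453% of all genes. The part of these cell types in the myeloid levels was not tested.

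To set the microglia levels beside those of infiltrating cells, each was expressed as a percentage of the mean in myeloid cells of the same genotype. In WT microglia at 1 d, the summed monocyte markers stood at 3.86% to 6.70% of their level in myeloid cells, and the neutrophil markers at 2.06% to 10.0%. Ms4a7, Ms4a4c and Ms4a4a were in a similar range, at 2.17% to 6.67%, 1.53% to 5.14% and 0.469% to 7.46%, and Ms4a4b reached higher, at 3.59% to 14.4%. Ms4a6c stood at 16.4% to 22.3%, Ms4a6b at 31.9% to 49.8% and Ms4a6d at 36.5% to 80.4%, so that the Ms4a6 genes were above the monocyte and neutrophil marker percentages in every such library. The border-associated macrophage markers, at 15.8% to 24.7%, spanned the range of Ms4a6c and lay below Ms4a6b and Ms4a6d. The mutant microglia at 1 d had monocyte markers at 1.53% to 4.57% and neutrophil markers at 2.29% to 9.47%. There Ms4a6d stood at 27.9% to 57.2%, Ms4a6b at 33.9% to 37.4% and Ms4a6c at 16.7% to 22.0%, while the Ms4a4 genes and Ms4a7 lay between 1.25% and 7.63%. In sham microglia the monocyte markers stood at 0.293% to 2.21%, the neutrophil markers at 1.90% to 9.69% and the border-associated macrophage markers at 8.54% to 23.8%. There Ms4a6d stood at 11.4% to 18.3%, Ms4a6b at 38.1% to 49.95% and Ms4a6c at 4.74% to 9.08%. The Ms4a6 genes were thus above the monocyte marker percentages in sham as well, and their place above them at 1 d does not describe the increase. At 7 d in WT, monocyte markers stood at 0.978% to 3.25%, Ms4a7 at 16.5% to 21.8% and Ms4a6c at 13.4% to 15.7%. Border-associated macrophage markers stood at 15.8% to 24.7% at 1 d and 19.7% to 24.0% at 7 d. The part of other cell types in these microglia levels was not tested.

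**Figure D4:**
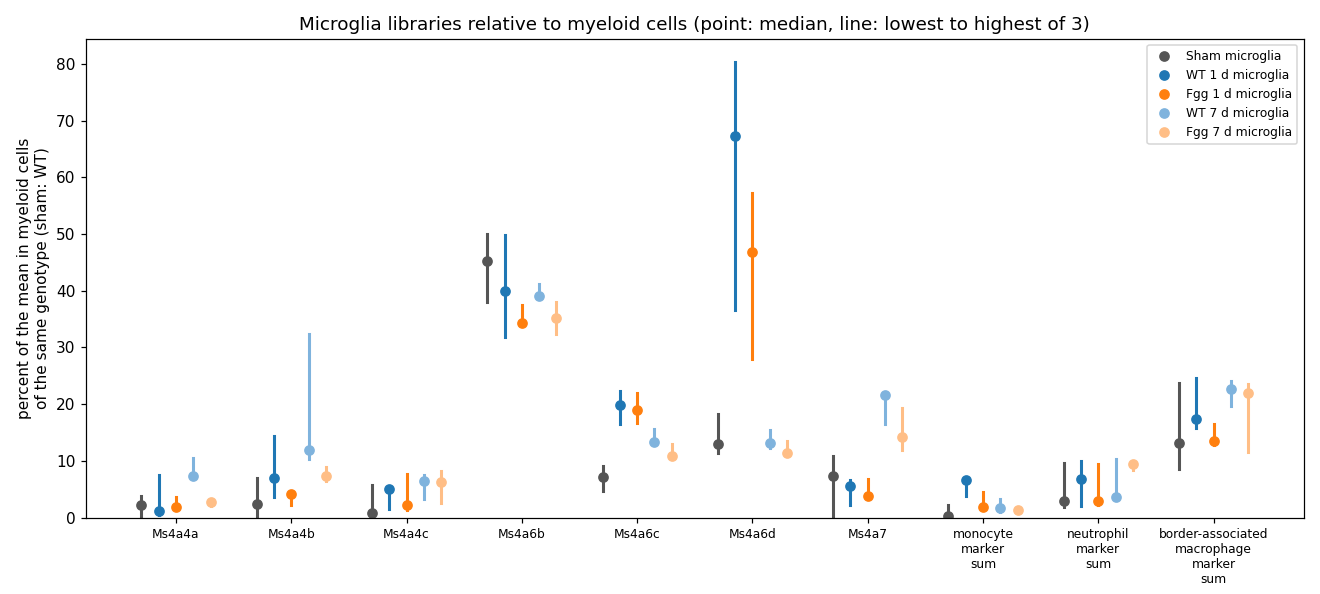
Level in the microglia libraries as a percentage of the mean in myeloid cells of the same genotype (sham: WT), for the 7 genes and for the summed markers of monocytes, neutrophils and border-associated macrophages. Points are medians and lines run from the lowest to the highest of 3 libraries. Ms4a6d at 1 d reaches 36.5% to 80.4% in WT, while the monocyte marker sum there reaches at most 6.70% and the border-associated macrophage marker sum 24.7%. In sham, Ms4a6d stands at 11.4% to 18.3% and these sums reach at most 2.21% and 23.8%.

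Whether the Fgg γ390–396A mutation altered these genes was tested directly, with a call at an adjusted p under 0.1 and a log2 fold change beyond 1. None of the 7 was called in microglia at 1 d, where 0.0546% of all genes were called, in microglia at 7 d, where 0.0378% were, or in myeloid cells, where 0.453% were. DESeq2 also called 0 of 7 in each, and an unadjusted p under 0.05 was found for 0, 1 and 0 members, against 5.08%, 3.34% and 11.5% of all genes. That gene was Ms4a4a at 7 d, lower in Fgg γ390–396A microglia, with a log2 fold change of -1.57 (95% interval -2.91 to -0.23, edgeR, adjusted p = 1). Ms4a4a, Ms4a6c and Ms4a7 did not overlap between the genotypes at 7 d, each with lower values in Fgg γ390–396A microglia, which makes 3 of 7 members against 5.28% of all genes. For Ms4a6c and Ms4a7 the differences were -0.36 (95% interval -0.84 to 0.12, edgeR, adjusted p = 1) and -0.67 (95% interval -1.98 to 0.65, edgeR, adjusted p = 1). For Ms4a6d at 1 d the log2 fold change in the mutant was -0.39, with an interval from -0.89 to 0.12 (edgeR, adjusted p = 0.89). For Ms4a6b, the intervals in microglia, which are approximate, reached from -0.40 to 0.51 at 1 d and from -0.38 to 0.54 at 7 d. In myeloid cells the widest estimate was that of Ms4a4b, 1.07 higher in Fgg γ390–396A mice (interval -0.33 to 2.46, edgeR, adjusted p = 0.55). The median over the 7 members was -0.13, -0.21 and 0.096 in the 3 comparisons, against 0 over all genes.

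Tests of whether the genotype difference itself changed gave no call among the members. For the change from 1 d to 7 d in microglia, 0 of 7 members and 0% of all genes had an adjusted p under 0.1 (edgeR), 653 genes had an unadjusted p under 0.05, and DESeq2 called 33 genes and 0 members. For myeloid cells against microglia, 0 of 7 members and 0.0462% of all genes were called.

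**Figure D5:**
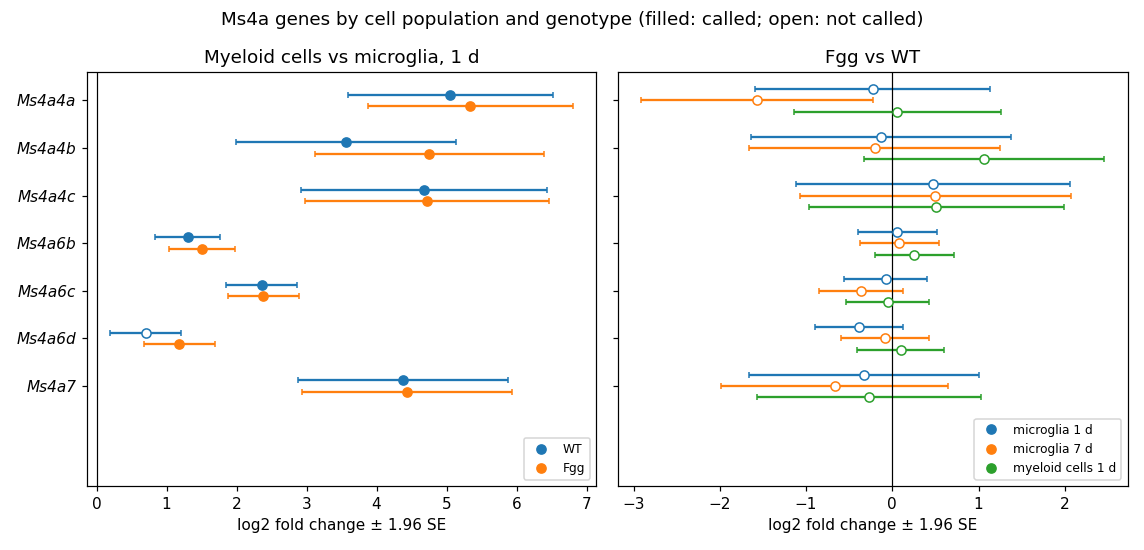
Log2 fold change of each Ms4a gene with its 95% interval, for myeloid cells against microglia at 1 d in both genotypes (left) and for Fgg γ390–396A against WT in 3 settings (right). Filled points were called: all of the left panel except Ms4a6d in WT, and none of the right panel.

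Of the 12 other Ms4a genes in the table, 6 had no count in any library, 4 had counts but stayed under 1 CPM in every group mean, and 2, Ms4a8a and Ms4a14, reached 1 CPM. Ms4a8a averaged at most 0.524 CPM in any microglia group, and 13.3 ± 4.37 CPM in WT and 16.6 ± 5.99 CPM in Fgg γ390–396A myeloid cells, 4.67 (edgeR, adjusted p = 0.0054) and 5.19 (edgeR, adjusted p = 0.0020) above microglia on the log2 scale. Ms4a14, the gene next to Ms4a7, averaged 0.421 ± 0.418 CPM in sham and 0.530 ± 0.406 CPM at 1 d and 3.45 ± 1.18 CPM at 7 d in WT microglia. It rose by 2.70 ± 0.81 from 1 d to 7 d in WT (edgeR, adjusted p = 0.038), and averaged 1.89 ± 0.436 CPM at 7 d in Fgg γ390–396A microglia. Its difference was 1.66 from 1 d to 7 d in the mutant (edgeR, adjusted p = 0.29) and 3.04 at 7 d against sham in WT (edgeR, adjusted p = 0.054), neither of which was called. Tmem176a and Tmem176b, relatives of the family encoded on chromosome 6, went the other way between populations. They averaged 45.5 ± 4.00 and 79.7 ± 15.3 CPM in WT microglia at 1 d and 21.2 ± 4.60 and 28.8 ± 4.00 CPM in WT myeloid cells, with log2 fold changes of -1.10 (edgeR, adjusted p = 0.0034) and -1.47 (edgeR, adjusted p = 0.00034), and were also called lower in Fgg γ390–396A myeloid cells (-1.07 and -1.09).

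A list of 10 genes was read, whose products are linked to MS4A proteins either directly or only through a receptor such as dectin-1 or TREM2. At 1 d against sham, 2 of 10 were called higher in WT and 1 of 10 in the mutant, beside the 8.06% and 5.49% of all genes given above. It was 1 of 10 in each comparison at 7 d, against 1.93% of all genes higher than sham in WT and 0.63% in Fgg γ390–396A mice, and 2.67% and 0.663% higher than at 1 d. None of the 10 was called between genotypes. Clec7a, which encodes dectin-1, the partner of MS4A4A, averaged 7.60 ± 3.70 CPM in sham and 22.8 ± 2.17 CPM at 1 d and 147 ± 4.51 CPM at 7 d in WT microglia. It was called in all 4 sham comparisons, while Ms4a4a was called in none. At 7 d in WT, Clec7a was 4.28 ± 0.35 (log2, SE) and Ms4a4a 1.99 ± 0.70 above sham. Whether the genes differed in their response was not tested, and the missing calls do not show it. Both were called higher in myeloid cells than in microglia, Clec7a by 3.76 in WT and 3.52 in Fgg γ390–396A mice, Ms4a4a by 5.05 and 5.34. Both were lower in Fgg γ390–396A than in WT microglia at 7 d, by log2 fold changes of -1.12 and -1.57, without a call. Fcer1g, the shared signalling chain of Fc receptors, was the other called gene at 1 d in WT, 1.10 ± 0.21 above sham (edgeR, adjusted p = 0.00092). In myeloid cells against microglia, 3 of 10 were called higher and 1 lower in WT, where 5.61% and 6.31% of all genes were, and the mutant had 2 of each, against 6.96% and 9.7%. Syk, the kinase downstream of dectin-1, was higher by 1.64 and 1.09, and Trem2, the lipid receptor whose soluble level is tied to the human MS4A region, was lower, with log2 fold changes of -1.20 and -1.35 in WT and Fgg γ390–396A mice. Card9, the adaptor after Syk, was called lower in Fgg γ390–396A myeloid cells (-2.54) and was -0.61 in WT, without a call. Tnfrsf18, which encodes the receptor GITR of T cells that Ms4a4b accompanies, was called higher in WT myeloid cells, at 2.49 ± 1.24 CPM. Its difference was 3.14 in WT (edgeR, adjusted p = 0.049) and 2.05 in the mutant (edgeR, adjusted p = 0.16). The genotype difference in this contrast was not called for either gene (edgeR, adjusted p = 0.53 for Card9 and 0.99 for Tnfrsf18). Tyrobp, Adam10, Adam17 and Fcer1a were not called in any comparison, and Fcer1a was at 0 in 5 of 7 groups.

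The genes whose levels ran most closely with each member were found by Pearson correlation of log2 CPM over the 21 libraries among 7778 genes, which describes the 7 groups more than independent samples and carries no test. Ms4a6d ran with the actin cytoskeleton genes Arpc2, Actb and Pfn1 (r = 0.990, 0.989 and 0.987). Ms4a6c ran with Fxyd5, Sh3bgrl and Mbd2 (0.983, 0.982 and 0.981), and Ms4a6b with Anxa6, H2-DMb1 and Flot1 (0.936, 0.935 and 0.922). Ms4a7 ran with F13a1, a factor of macrophages that is also among the border-associated macrophage markers, and with Wfdc17 and Tlr8 (0.959, 0.958 and 0.958). Ms4a4a ran with Sirpb1a, Lyz2 and Wfdc17 (0.977, 0.976 and 0.970), Ms4a4c with Slfn1, Capn1 and Plac8 (0.941, 0.931 and 0.929), and Ms4a4b with Mfsd6, Capn1 and Itga4 (0.958, 0.949 and 0.946). No gene was among the nearest 3 of more than 2 members.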

How the data were processed

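RNA-seq was performed on 21 libraries of sorted cells in 7 groups of 3, each library from 2 pooled brains. The authors deposited expected counts per gene, estimated by salmon and scaled so that transcript length is divided out within a library, without scaling between libraries. The processing notes name R 4.2.0, DESeq2 1.36.0 and GRCm38. Of 45706 identifiers, 45143 matched GENCODE M21. Counts were rounded to whole numbers, a minimum of 5 counts summed over the 21 libraries was required, and 23815 genes were fitted in 1 model of all groups with edgeR 4.0.16 (R 4.3.3, TMM, quasi-likelihood test, Benjamini-Hochberg adjustment). The SE is the log2 fold change divided by the square root of F. Library totals of 18896957 to 51875767 counts set the precision, and the limit given for a count of 0 covers counting error only. Every pair of replicates differed beyond sampling noise (chi-square of at least 18.6 per gene). On simulated data for WT microglia at 1 d against sham (23252 genes), 66.5% of 200 genes changed by 2 on the log2 scale were called. Alternatives included DESeq2 1.42.0, other scalings and filters, a replicate block and leaving out each library. Promoters were aligned with Biopython 1.88.

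The members, gene lists and motifs were chosen with earlier results of these data known. The genes named are all 7 members, other family genes that reached 1 CPM in a group mean, genes of the list linked to MS4A proteins that were called or are paired with a member, and the 3 genes most like each member.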

Additional observations from a re-analysis of the deposited data

How the results depend on the processing

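Values are log2 fold changes from edgeR unless counts are named, and the causes of the changes below were not tested except where the setting itself uses fewer genes or samples. With library totals in place of TMM, Ms4a4a in Fgg γ390–396A microglia at 1 d against sham was -0.023, Ms4a6b from 1 d to 7 d was 0.19 in WT and 0.091 in Fgg γ390–396A mice, and between genotypes Ms4a4b and Ms4a6c at 1 d were 0.24 and 0.25 and Ms4a4b and Ms4a6d at 7 d were 0.024 and 0.14, each with its sign turned. Ms4a6b from 1 d to 7 d also turned with DESeq2 (0.058 in WT, 0.0997 in Fgg γ390–396A), with DESeq2's size factors (0.058 and 0.0997) and, in Fgg γ390–396A, with filterByExpr (0.043). None of these differences was called under any of these settings.

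The number of members called moved to 1 at 1 d in both genotypes and 0 at 7 d in WT without TMM, and the same 1, 1 and 0 with a bar of 1.5 on the log2 scale, under which Ms4a6b in WT and Ms4a6d in Fgg γ390–396A mice also lost their calls between myeloid cells and microglia. At 7 d against sham in WT it was 2 with DESeq2 and 0 on the compared groups alone, and from 1 d to 7 d it was 2 with DESeq2 in WT and 2 on the compared groups alone in each genotype. Leaving out 1 library, members called ranged from 0 to 3 (WT, 7 d against sham), 0 to 1 (Fgg γ390–396A, 7 d against sham) and 1 to 2 (WT, 7 d against 1 d, where Ms4a4a was called at 3.38 without WT microglia replicate 1 of 1 d).

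The number of all genes called, 2923, 1582, 481 and 158 against sham (WT and Fgg γ390–396A at 1 d, then at 7 d), was 1749, 834 and 282 for the first 3 with the bar of 1.5. At 7 d it was 820 and 347 with DESeq2 and 826 and 85 without TMM, and 85 in Fgg γ390–396A on the compared groups alone. From 1 d to 7 d, 1682 and 844 genes became 820 and 346 with the bar of 1.5, and 844 became 1343 with no bar. Between genotypes, 13, 9 and 108 genes (1 d, 7 d, myeloid cells) became 104, 80 and 841 with DESeq2 and 8, 19 and 7 on the compared groups alone, and the 108 became 34 without TMM and 176 with filterByExpr. For myeloid cells against microglia in Fgg γ390–396A mice, 3967 became 2211 on the compared groups alone. The interactions, 0 and 11 genes, became 33 and 259 with DESeq2, and the 11 became 7 without TMM and 0 on the compared groups alone. Leaving out 1 library gave 283 to 486 (WT, 7 d against sham), 74 to 179 (Fgg γ390–396A, 7 d against sham), 463 to 1163 (Fgg γ390–396A, 7 d against 1 d), 6 to 89 and 65 to 641 (genotypes at 1 d in microglia and myeloid cells) and 0 to 151 (interaction with cell population).

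Members whose sign turned when 1 library was left out ranged as follows, all uncalled in the full fit. Against sham in WT at 1 d these were Ms4a4a (-1.40 to 1.39), Ms4a7 (-0.91 to 0.38) and Ms4a6b (-0.28 to 0.014), and in Fgg γ390–396A at 1 d Ms4a4a (-0.23 to 1.16), Ms4a6b (-0.18 to 0.016) and Ms4a7 (-1.24 to 0.055). At 7 d they were Ms4a6d in WT (-0.21 to 0.16), and Ms4a4a (-0.11 to 1.28), Ms4a6b (-0.18 to 0.014) and Ms4a6d (-0.29 to 0.073) in Fgg γ390–396A mice. From 1 d to 7 d they were Ms4a6b in WT (-0.18 to 0.093) and Ms4a4a (-0.052 to 0.58) and Ms4a6b (-0.062 to 0.054) in Fgg γ390–396A mice. Between genotypes at 1 d they were Ms4a4c (-0.67 to 0.88), Ms4a6c (-0.19 to 0.018), Ms4a4b (-0.49 to 0.51), Ms4a4a (-0.74 to 1.69) and Ms4a6b (-0.091 to 0.22), at 7 d Ms4a6d (-0.17 to 0.028) and Ms4a4b (-0.47 to 0.51), and in myeloid cells Ms4a6c (-0.26 to 0.20) and Ms4a4a (-0.079 to 0.23).

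The replicate numbers in the labels were not used as pairs: in no comparison did every pair of same-numbered libraries correlate above 0.1 in their deviations from the group means, and at most 5 of 6 libraries in a comparison correlated best with their own number. That bar cannot exclude pairing. Same-numbered correlations were 0.0797, 0.11 and 0.0281 for WT myeloid cells against microglia, where other numbers averaged -0.0365. Between genotypes in microglia at 1 d they were 0.26, 0.087 and 0.0714, against -0.0697. Myeloid and microglia libraries of 1 d may share brains, which was not resolved here. With the numbers as a replicate block no call among the members changed, and the genes called between genotypes in myeloid cells went from 108 to 66. No filter on low counts and removal of ribosomal RNA genes changed no direction or call of a member, but with the ribosomal RNA genes removed all 49 group means of the members in CPM were 2.04 times those printed, so that the levels, unlike the fold changes, depend on that choice. The depth limits Ms4a4b, which held 0 to 26 counts in microglia libraries, where 3 counts are 0.0448 to 0.158 CPM. Ms4a4c is limited instead by the spread of its sham libraries, at 15, 0 and 137 counts.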
